A study of Sus scrofa with 16 samples.

Results

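Preterm piglets given broad-spectrum antibiotics from birth were compared with saline-treated controls in the distal small intestine, on 8 of the 16 Affymetrix pig microarrays of the study. The 8 arrays were all those labelled as distal, and no measured value chose them. They came from 4 antibiotics piglets (animals 85, 86, 87 and 95) and 4 untreated piglets given saline (animals 83, 88, 89 and 92), with the number in each label read as that of the animal. Every piglet was a Landrace x Large white x Duroc cross delivered surgically, by caesarean, at gestation day 105. All first received parenteral nutrition with minimal enteral feeding, moved to full enteral feeding by an oro-gastric tube on day 3, and were killed on day 5. The antibiotics group of the study (11 piglets) received Ampicillin, Gentamycin and Metronidazol both orally and intramuscularly, and the control group (13 piglets) received matching volumes of saline. Preterm birth and formula feeding were therefore common to both groups, and no term-born, breast-fed or germ-free animals were compared. The arrays measured RNA of whole tissue, in which fewer cells of a type and less RNA per cell cannot be told apart.

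The question behind the comparison was how the immature distal gut responds when its first bacterial colonisation is held back. In formula-fed preterm piglets the distal intestine is a frequent site of necrotising enterocolitis, an inflammatory necrosis of the bowel wall that also affects preterm infants. Gut epithelium and resident macrophages sense bacterial products through Toll-like receptors. These receptors switch on NF-kB and interferon programmes, secreted antimicrobial proteins, complement components and chemokines that draw leukocytes into the wall.

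Values are the authors' deposited log2 expression values, on which a difference of 1 is a doubling, and the lowest value in the deposited table was 2.14. In each sentence with 4 values per group, the antibiotics values run in the order of animals 85, 86, 87 and 95 and the control values in the order 83, 88, 89 and 92. Distal tissue carried the ileal bile acid binding protein FABP6 at 6.64 to 11.03 (8 arrays), against 2.28 to 7.40 on the 8 proximal arrays. The microvillus protein VIL1 lay at 12.82 to 13.44 in distal tissue. Between 45.2 and 45.9 percent of probe sets lay above log2 5 on each distal array, and correlations within a group were 0.944 to 0.981 for antibiotics and 0.913 to 0.96 for controls. The 5′ minus 3′ signal of the RNA-quality probe sets averaged -4.22 ± 0.54 with antibiotics and -3.98 ± 0.25 in controls (SD, n = 4 each, exact permutation test, two-sided p = 0.457). The arrays differed in how distal they looked. On an axis of 544 probe sets that separated the segments but were not called with treatment (0 for the proximal and 1 for the distal mean), antibiotics arrays lay at 1.09 to 1.25. Controls 88, 83, 92 and 89 lay at 0.667, 0.79, 0.922 and 1.03. No control overlapped the antibiotics arrays (exact permutation test, two-sided p = 0.0286, the smallest possible for 4 against 4), so this position is given beside the gene groups below, and its part in them was not tested.

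In limma, 245 of 11538 tested probe sets (2.12 percent) differed between the groups at an adjusted p under 0.05, 118 higher and 127 lower with antibiotics. At the level of genes, each read from its brightest probe set, 68 of 4684 were lower (1.45 percent) and 53 were higher (1.13 percent). The 2 directions were close in number but not in size. By the measured values the median called gene fell by 2.11 on the log2 scale or rose by 1.37, and fell by 2.04 or rose by 1.37 where a gene at or under log2 5 on every array of its lower group was set to that floor. In measured differences 38 genes fell by more than 2 against 10 that rose by more than 2. Beyond 4 log2 units there were 11 genes that fell and 1 that rose, the threonine dehydrogenase TDH, while 33 of the 53 higher genes rose by less than 1.5. Across all 4684 genes the median difference was 0.02 and 2260 had a lower mean. The 8 arrays did not overlap between groups for 67 of the 68 lower genes (6.7 percent of all tested genes did not overlap in that direction) and for 53 of the 53 higher genes (7.88 percent). The exception was C4A, for which antibiotics array 85 (7.26) lay above control array 83 (7.05).

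**Figure D1:**
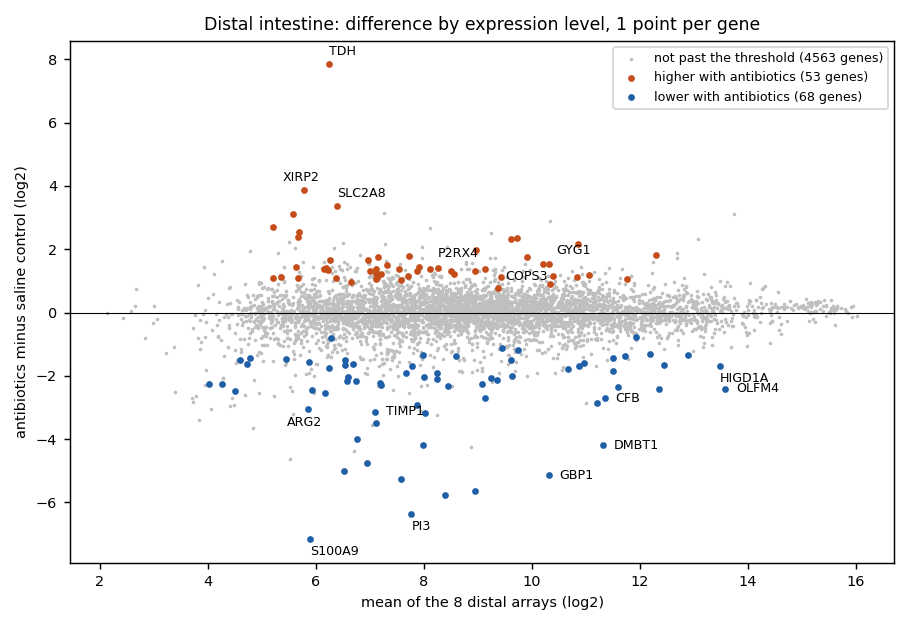
Difference between antibiotics and saline control (log2, y axis) against the mean log2 value of the 8 distal arrays (x axis), 1 point per tested gene. Blue points are the 68 genes lower and orange points the 53 genes higher with antibiotics at an adjusted p under 0.05, and the lower genes reach further from 0 than the higher ones except for TDH.

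The number of calls leaned on single animals. It was 106 probe sets without control 92, 117, 120, 124 and 126 without antibiotics 86, control 83, antibiotics 85 and antibiotics 95, 150 and 177 without antibiotics 87 and control 89, and 353 without control 88. Of the 68 lower genes 25 passed in all 8 of these fits, as did 20 of the 53 higher genes. Control 88 was the control array nearest to the antibiotics arrays for 37 of the lower and 27 of the higher genes. Averaged over the 68 lower genes it stood at 9.1, against 9.69, 9.89 and 9.96 for controls 83, 89 and 92 and 7.0 to 7.31 with antibiotics. With position as a covariate, 132 probe sets were called (58 of the 245), and 21 of the lower and 11 of the higher genes passed. The covariate correlated with treatment at 0.828 over the 8 arrays and made the SE 1.59 times larger at the median, while the median difference of the called genes was -2.28 and 1.37 with it. All 121 genes kept their direction.

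**Figure D2:**
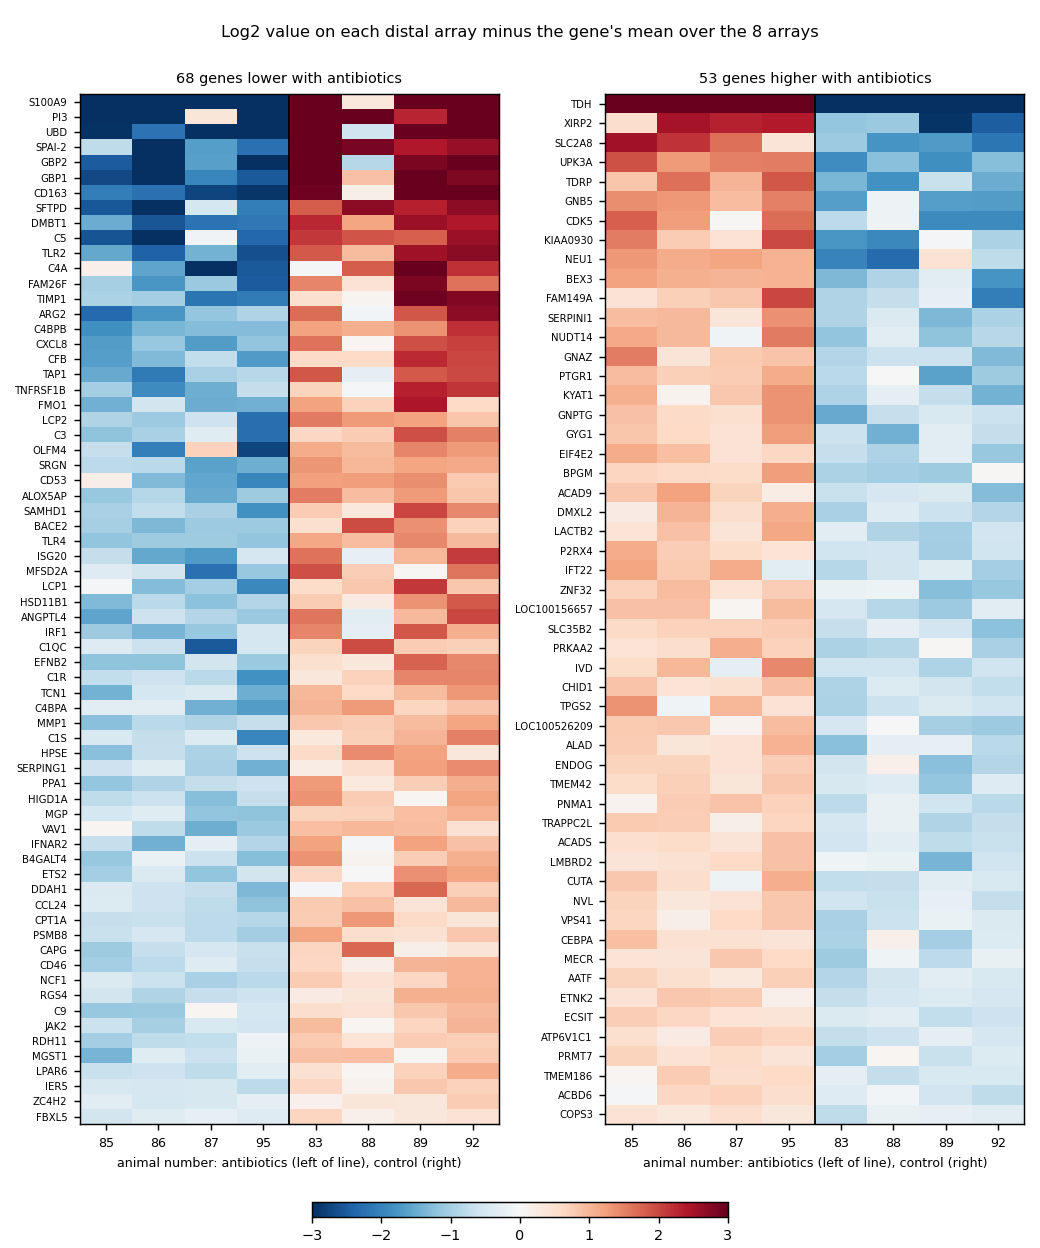
Heat map of the 121 called genes (rows, sorted by difference) on the 8 distal arrays (columns, by animal number), as log2 value minus the gene's mean over the 8 arrays. Antibiotics arrays stand left of the black line, and control 88 is the palest control column for many of the lower genes, such as UBD, GBP2 and ARG2.

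Several secreted proteins that bind bacteria or guard the epithelial surface fell by wide margins. DMBT1, a mucus scavenger protein that aggregates bacteria, read 9.83, 8.76, 9.11 and 9.19 with antibiotics and 13.58, 12.50, 13.90 and 13.72 in controls, and fell by 4.2 (SE 0.36, adjusted p = 2.3e-05). Its lowest control stood more than 2 log2 units above the highest antibiotics array. SFTPD, the collectin surfactant protein D, read 4.41, 2.61, 6.42 and 4.88 against 8.77, 9.63, 9.29 and 9.63, and a second probe set of the gene fell by 3.03 (SE 0.36, adjusted p = 0.000292). For S100A9, a calcium-binding protein of neutrophils and inflamed epithelium, all antibiotics arrays were near the lowest deposited value (2.29, 2.28, 2.3 and 2.39), while controls read 11.08, 6.2, 9.97 and 10.60, with control 88 well below the other 3. Its fall was at least 22.1-fold (against the floor of log2 5, used for each gene named whose lower group was at or under it on every array; adjusted p = 0.00161). List medians use measured differences, with the value at the floor given where it differed by over 0.1. The elastase inhibitor PI3, or elafin, read 3.4, 3.71, 8.13 and 3.13 against 10.91, 10.97, 10.07 and 11.89: antibiotics array 87 stood at 8.13 while the other 3 lay between 3.13 and 3.71. Its relative SPAI-2 read 8.19, 2.31, 7.3 and 6.71 against 12.37, 11.79, 11.34 and 11.57, lowest on antibiotics arrays 86 and 95. OLFM4, a glycoprotein of crypt stem cells and of stimulated epithelium, stood among the brightest genes of the tissue. It read 12.90, 11.55, 14.28 and 10.84 with antibiotics and a tight 14.70, 14.55, 15.05 and 14.86 in controls, so that antibiotics animals ranged over more than 3 log2 units and array 87 came close to the lowest control. It fell by 2.4 (SE 0.58, adjusted p = 0.0444), with its second probe set lower by 3.31 (SE 0.73, adjusted p = 0.027).

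Of the secreted defence list 11 of 33 genes were tested, 9 with a lower mean and 5 called lower, and the list median was -3.56. Of all tested genes 1.45 percent were called lower. The 2 members with a higher mean, SLPI and DEFB1, overlapped between groups and did not pass. They gave 0.83 (SE 0.44, adjusted p = 0.399) and 0.89 (SE 0.55, adjusted p = 0.471). Among the members that did not pass, DUOX2, the oxidase that makes hydrogen peroxide at the gut surface, lay at 2.14 on all 4 antibiotics arrays and at 2.73, 4.9, 6.79 and 7.7 in controls (at least 1.44-fold lower, adjusted p = 0.168). PIGR, the receptor that carries IgA across the epithelium, read 2.16, 2.37, 2.37 and 2.37 against 3.73, 5.35, 4.46 and 7.03 (at least 1.1-fold lower, adjusted p = 0.169). The antimicrobial peptide LEAP2 split the controls: 12.13, 11.83, 3.76 and 7.57, against 4.84, 6.18, 5.69 and 4.36 with antibiotics, so that the groups overlapped (-3.56, SE 1.28, adjusted p = 0.176). DMBT1, SFTPD, S100A9, PI3 and SPAI-2 passed without any 1 of the 8 arrays, and OLFM4 did so in 1 of the 8 fits (adjusted p up to 0.149, without antibiotics 86). With position as a covariate DMBT1, SFTPD and S100A9 passed, and PI3, SPAI-2 and OLFM4 had adjusted p of 0.0616, 0.07 and 0.31.

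Complement formed the longest run of called lower genes: 12 of 20 tested members passed, all of them lower (1.45 percent of all tested genes were called lower). In the list 19 had a lower mean and the median was -1.74. The calls covered the first component, the central components and the terminal pathway as well as the inhibitors, but not every member. C8B was the 1 member with a higher mean, with overlap (1.59, SE 0.58, adjusted p = 0.181). CFD and CFP overlapped between groups (-0.43 and -0.36, adjusted p = 0.627 and 0.685). C1R and C1S, the proteases of the first component, fell by 1.99 (SE 0.47, adjusted p = 0.0395) and 1.78 (SE 0.41, adjusted p = 0.0346). C1S read 10.21, 9.95, 10.27 and 8.71 against 11, 11.38, 11.69 and 12.18. For C1QC, a chain of the recognition molecule, the values were 7.61, 7.37, 5.48 and 7.47 against 8.68, 9.96, 8.77 and 8.71, lowest on antibiotics array 87 and highest on control 88. C3 and CFB, which drive the amplification loop, fell by 2.41 and 2.71 (adjusted p = 0.00664 and 0.00369). CFB read 9.71, 10.03, 10.62 and 9.65 against 11.93, 11.95, 13.60 and 13.35, with controls 83 and 88 below controls 89 and 92. C5, the start of the terminal pathway, fell by 4.2 (SE 0.67, adjusted p = 0.00344), and C9, which forms the membrane pore, read 10.60, 10.61, 11.79 and 11.19 against 12.25, 12.15, 12.53 and 12.70 and fell by 1.36 (SE 0.33, adjusted p = 0.0403). A second C9 probe set fell by 1.77 (adjusted p = 0.0279).

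Inhibitors of the cascade were lower on the same arrays. The 2 chains of C4b-binding protein, which inactivates C4b, were C4BPB and C4BPA. C4BPB read 6.05, 6.51, 6.57 and 6.58 against 9.08, 8.96, 9.23 and 10.07 and fell by 2.91 (SE 0.37, adjusted p = 0.00051), with the arrays of each group close together. C4BPA read 7.35, 7.33, 6.24 and 6.01 against 8.69, 8.96, 8.33 and 8.53 and fell by 1.9 (SE 0.37, adjusted p = 0.0127). CD46, a membrane cofactor for cleavage of C3b, read 10.48, 10.72, 11.12 and 10.80 against 12.11, 11.70, 12.51 and 12.55 and fell by 1.44 (SE 0.32, adjusted p = 0.0288). Its other probe sets gave -1.53 and -1.47 and did not pass (adjusted p = 0.144 and 0.109). SERPING1, the C1 inhibitor, fell by 1.69 (SE 0.42, adjusted p = 0.0489). CD59 and CD55, membrane inhibitors of the pore and of the convertases, were lower without overlap and did not pass (-1.08, SE 0.3, adjusted p = 0.0764 and -1.78, SE 0.54, adjusted p = 0.109). Among the 12 called members, C4BPB, C5, CFB, C3 and C4BPA passed in all 8 fits that left out 1 array. C1QC and SERPING1 passed in 0 of them (adjusted p up to 0.0964 without antibiotics 87 and 0.167 without control 92). The other 5, C4A, C9, CD46, C1R and C1S, passed in 1 to 3 (up to 0.138 for C9, without antibiotics 86). With position as a covariate C4BPB, CFB and C3 passed, and the list median was -1.67.

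Receptors and signalling proteins of bacterial sensing were lower in smaller number. TLR2, the receptor for bacterial lipoproteins, read 5.25, 4.35, 5.35 and 4.14 against 8.61, 7.72, 9.31 and 9.49 and fell by 4.01 (SE 0.45, adjusted p = 0.000166). TLR4, the endotoxin receptor, was at or under 3.20 on every antibiotics array (3.09, 3.2, 3.2 and 3.09) and at 5.42, 5.2, 5.7 and 5.25 in controls, a fall of at least 1.31-fold (adjusted p = 0.0174). NFKBIA, the inhibitor that NF-kB itself induces, read 9.24, 8.87, 8.65 and 9.85 against 10.83, 9.89, 11.56 and 11.96 without overlap and did not pass (-1.91, SE 0.52, adjusted p = 0.0742). In cytokine signalling, the kinase JAK2 fell by 1.34 (SE 0.28, adjusted p = 0.0197) and IFNAR2, a chain of the type I interferon receptor, by 1.63 (SE 0.35, adjusted p = 0.0243). JAK2 read 7.33, 6.98, 7.52 and 7.41 against 8.94, 8.05, 8.62 and 9.01, closest on antibiotics array 87 and control 88. TNFRSF1B, the second TNF receptor, read 5.14, 4.28, 4.7 and 5.46 against 6.83, 6.14, 8.5 and 8.31, where controls 83 and 88 lay between the antibiotics arrays and controls 89 and 92. ETS2, a transcription factor of stimulated cells, fell by 1.59 (SE 0.4, adjusted p = 0.0488), and the early response gene IER5 by 1.12 (SE 0.26, adjusted p = 0.0384). Of the immediate early list 16 of 20 tested members had a lower mean, with IER5 the single call, a list median of -0.53, and -1.45 with position.

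Of 17 tested chemokine and cytokine genes 15 had a lower mean, the median was -1.14 and CXCL8 was the single call. CXCL8, the neutrophil chemoattractant, read 9.53, 10.06, 9.53 and 10.01 against 12.84, 11.26, 13.15 and 13.26, lowest among controls on array 88. CXCL2 read 3.1, 2.92, 2.91 and 3.12 against 6.0, 3.33, 8.54 and 8.72, without overlap but with control 88 close to the antibiotics arrays (at least 3.14-fold lower, adjusted p = 0.158). IL15, a cytokine that sustains intraepithelial lymphocytes, read 5.58, 4.78, 4.19 and 5.16 against 8.71, 6.55, 5.72 and 6.33 (-1.9, SE 0.71, adjusted p = 0.192). AMCF-II, a list member with a smaller p than these 2, was lower without overlap and did not pass (-0.73, SE 0.23, adjusted p = 0.113). CCL24, an eosinophil chemoattractant outside that list, fell by 1.51 (SE 0.36, adjusted p = 0.0395). Within this group and the receptors above, TLR2 passed in all 8 fits without 1 array, TLR4 and JAK2 in 5 and 4, TNFRSF1B in 3, IFNAR2 in 2, CXCL8, ETS2 and IER5 in 1, and CCL24 in 0 (adjusted p up to 0.13 without control 92). With position TLR2, TNFRSF1B and ETS2 passed.

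Interferon-responsive genes were mostly lower, and their controls differed from one another. Of 27 tested, 22 had a lower mean and the median was -1.24 (-0.99 at the floor). Of these 27, 7 were called, all lower (1.45 percent of all tested genes were called lower). The list average ran from 6.96 to 9.49 over the control arrays and from 6.59 to 7.21 with antibiotics. UBD, or FAT10, which tags proteins for the proteasome, read 5.43, 6.2, 5.19 and 5.29 against 13.77, 7.8, 11.36 and 12.19, with array 88 lowest and array 83 highest among controls. The guanylate-binding GTPase GBP2 read 5.08, 4.21, 5.96 and 4.54 against 12.20, 6.72, 10.40 and 11.51. GBP1 read 7.62, 7.21, 8.37 and 7.81 against 13.54, 11.19, 13.70 and 13.12, and its other probe sets fell by 3.20 and 6.19 (adjusted p = 0.014 and 3.93e-05). SAMHD1, a nucleotide hydrolase that restricts viruses, read 8.11, 8.34, 8.11 and 7.28 against 9.84, 9.4, 11.09 and 10.52 and fell by 2.25 (SE 0.42, adjusted p = 0.00986). FAM26F, a membrane protein of activated immune cells, read 7.04, 6.29, 6.91 and 5.53 against 9.5, 8.46, 10.86 and 9.65 and fell by 3.17 (SE 0.5, adjusted p = 0.00308). IRF1, which switches on interferon target genes, read 8.15, 7.85, 8.1 and 8.72 against 10.69, 8.94, 11.10 and 10.33, and ISG20, an antiviral exonuclease, read 6.48, 5.65, 5.5 and 6.68 against 8.82, 6.95, 8.18 and 9.28. STAT2 and IRF8, transcription factors of interferon signalling, did not pass (at least 1.49-fold lower, adjusted p = 0.122, and -1.56, SE 0.5, adjusted p = 0.127). The 5 members with a higher mean were OAS1 (0.62), USP18 (0.52), EIF2AK2 (0.21), IRF3 (0.17) and ISG12(A) (0.15). All 5 overlapped between groups and had adjusted p of 0.478 or more in limma. MX1, RSAD2 and ISG15 gave -0.43, -0.81 and -1.2 with overlap (limma adjusted p = 0.901, 0.819 and 0.685).

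Antigen processing moved with smaller steps. PSMB8, an immunoproteasome subunit, read 3.93, 4.1, 3.81 and 3.56 against 5.78, 5.13, 5.05 and 5.41, with every antibiotics array under log2 5, a fall of at least 1.27-fold (adjusted p = 0.000896). The peptide transporter TAP1 fell by 2.71 (SE 0.5, adjusted p = 0.00981). In all, 20 of 23 tested members had a lower mean and the median was -0.90 (-0.78 at the floor). Of the 23, 2 were called lower, against 1.45 percent of all tested genes. PSMB10, another immunoproteasome subunit, and the class I gene SLA-6 were lower without overlap and did not pass (-1.02, SE 0.27, adjusted p = 0.0693 and -1.15, SE 0.32, adjusted p = 0.0812). SLA-DRB1, a class II chain, read 8.81, 6.94, 7.46 and 7.85 against 9.42, 10.31, 9.73 and 9.05 (-1.86, SE 0.57, adjusted p = 0.11). Of the interferon and antigen genes named here, GBP1, GBP2, SAMHD1, FAM26F, IRF1, PSMB8 and TAP1 passed in all 8 fits without 1 array. UBD and ISG20 passed in 1 (adjusted p up to 0.0872 without control 92 and 0.153 without control 92). With position as a covariate GBP1, GBP2, SAMHD1, FAM26F, IRF1, TAP1 and UBD passed, and the interferon list median was -1.71.

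Genes of leukocytes were lower on the antibiotics arrays. All 14 tested members of the leukocyte adhesion and signalling list had a lower mean, with a median of -1.45. Of the 14, 5 were called lower, against 1.45 percent of all tested genes. CD53, LCP1 and VAV1, which serve adhesion, the cytoskeleton and signalling, fell by 2.32, 2.15 and 1.65 (adjusted p = 0.0127, 0.0297 and 0.014), and NCF1, a subunit of the oxidative burst enzyme, by at least 1.41-fold (adjusted p = 0.033). LCP2, an adaptor of antigen receptor signalling in T cells and myeloid cells, read 5.03, 4.84, 5.32 and 3.68 against 7.49, 7.22, 7.14 and 6.77 and fell by 2.44 (SE 0.39, adjusted p = 0.00344). SRGN, the proteoglycan that packs leukocyte granules, read 10.80, 10.78, 9.98 and 10.14 against a narrow 12.93, 12.60, 12.79 and 12.74 and fell by 2.34 (SE 0.39, adjusted p = 0.00484). ALOX5AP, which presents arachidonic acid for leukotriene synthesis, read 6.06, 6.36, 5.7 and 6.13 against 8.74, 8.12, 8.49 and 8.04 and fell by 2.28 (SE 0.31, adjusted p = 0.000931). HPSE, the heparan sulfate cleaving enzyme heparanase, fell by 1.76 (SE 0.28, adjusted p = 0.00307). CAPG, an actin-capping protein of macrophages, read 4.39, 4.77, 4.97 and 4.8 against 6.11, 7.19, 5.63 and 5.84, where control 88 stood more than 1 log2 unit above the other controls. Its fall was at least 2.28-fold (adjusted p = 0.0328), but its difference with position as a covariate was -0.16 (adjusted p = 0.845). TYROBP, the signalling adaptor of myeloid receptors, read 7.56, 7.58, 5.65 and 6.26 against 8.43, 8.5, 8.17 and 8.2 and just missed the threshold (-1.56, SE 0.39, adjusted p = 0.0501). RGS1, a regulator of chemokine receptor signalling in lymphocytes, read 3.04, 3.04, 2.25 and 3.79 against 6.4, 5.16, 6.87 and 5.31 (at least 1.91-fold lower, adjusted p = 0.0611).

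Among defining markers, the macrophage list had 15 of its 20 genes on the array, 5 of them at or under log2 5 on all 8 distal arrays. Its average over genes was 5.33 to 5.81 with antibiotics and 6.62 to 7.03 in controls. CD163, the haemoglobin scavenger receptor of tissue macrophages, read 4.46, 4.29, 3.77 and 3.62 against 9.46, 6.71, 9.77 and 10.20, with control 88 lowest, and a second, dimmer probe set did not pass (-2.41, adjusted p = 0.223). MRC1, the mannose receptor, gave -1.59, SE 0.44, adjusted p = 0.0764. The neutrophil list had 7 genes on the array, 3 of them dim on all 8 arrays. Only 2 of the 7, S100A9 and NCF1, were tested, and both were called lower. The list, S100A9 included, averaged 2.4 to 2.5 against 3.16 to 5.05, mostly under log2 5. Of 14 T and NK cell genes on the array, 11 were dim on all 8 arrays, and the average was 2.36 to 2.72 against 2.53 to 3.26. Endothelial genes averaged 4.18 to 4.67 against 4.43 to 4.74, and fibroblast genes 7.93 to 8.47 against 8.28 to 8.84. Enterocyte genes averaged 11.65 to 11.86 against 11.86 to 12.33. These 3 lists had 0 limma calls. At an unadjusted p under 0.05, 0 of 6, 1 of 12 and 4 of 18 tested members were lower, against 402 of all 4684 genes. The part of cell numbers in the leukocyte results was not tested. LCP2, SRGN, ALOX5AP, HPSE and CD163 passed in all 8 fits without 1 array and CD53 and VAV1 in 7. LCP1 passed in 2, NCF1 and CAPG in 1 (for CAPG adjusted p up to 0.104, without antibiotics 85). With position ALOX5AP and CD163 passed.

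**Figure D3:**
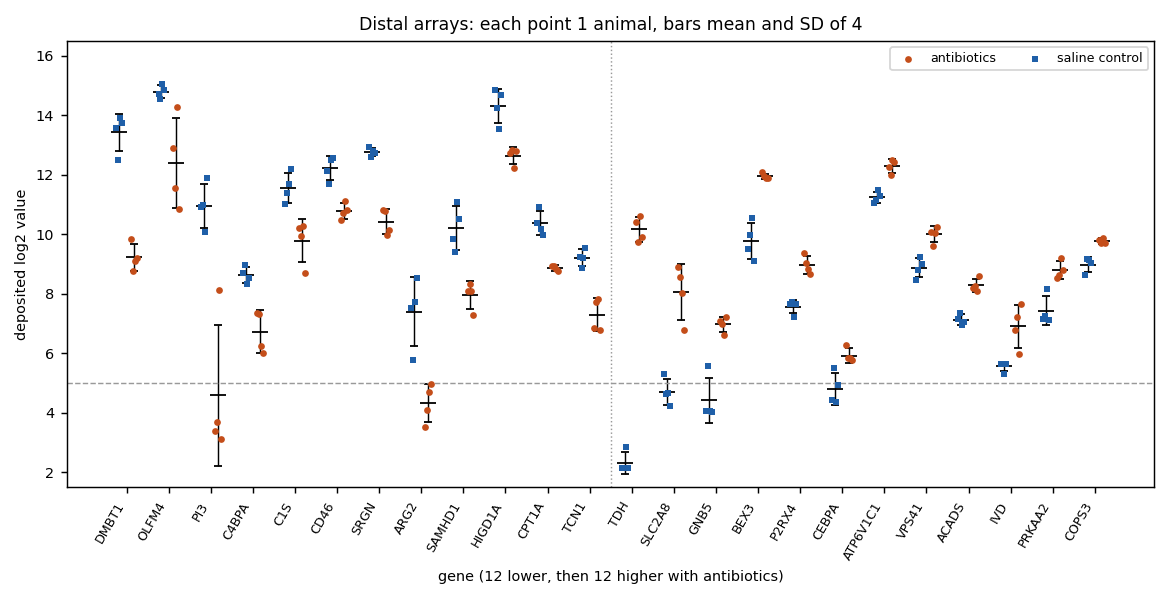
Deposited log2 values (y axis) of 12 genes lower and 12 genes higher with antibiotics, 1 point per animal (orange circles antibiotics, blue squares saline control), with bars for the mean and SD of 4 arrays; the dashed line marks log2 5. The groups do not overlap for any of the 24 genes, and PI3 and OLFM4 spread widest among antibiotics animals.

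Metabolic enzymes were found on the lower side as well. ARG2, the mitochondrial arginase, was under log2 5 on all 4 antibiotics arrays (3.54, 4.11, 4.7 and 4.97) and read 7.53, 5.78, 7.72 and 8.54 in controls, a fall of at least 5.25-fold (adjusted p = 0.0284). CPT1A, the gatekeeper of mitochondrial fatty acid uptake, read 8.93, 8.95, 8.82 and 8.76 against 10.37, 10.92, 10.19 and 9.99, tight with antibiotics and highest on control 88, and fell by 1.5 (SE 0.35, adjusted p = 0.0377). PDK4, the kinase that shuts pyruvate out of oxidation, read 6.04, 6.66, 6.12 and 6.83 against 9.62, 10.13, 8.93 and 9.36: more than 2 log2 units separated the groups, yet it did not pass (-3.1, SE 0.8, adjusted p = 0.0576). ANGPTL4, the secreted inhibitor of lipoprotein lipase, read 6.67, 7.63, 7.37 and 7.15 against 9.86, 7.91, 9.22 and 10.25 and fell by 2.11 (SE 0.52, adjusted p = 0.0453). HSD11B1, which regenerates active cortisol in tissue, read 8.02, 8.55, 8.13 and 8.48 against 10.12, 9.63, 10.70 and 11.18 and fell by 2.12 (SE 0.43, adjusted p = 0.0181). RDH11, a retinal reductase, fell by 1.33 (SE 0.24, adjusted p = 0.00812). MGST1, a membrane glutathione transferase, fell by 1.3 (SE 0.32, adjusted p = 0.0491). FMO1, a drug-oxidising monooxygenase, read 3.06, 3.95, 3.01 and 3.06 against 5.7, 5.2, 6.92 and 5.11 and fell at least 1.66-fold (adjusted p = 0.00645).

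Abundant and structural transcripts followed. HIGD1A, a small mitochondrial protein induced by hypoxia, read 12.73, 12.84, 12.21 and 12.79 against 14.83, 14.24, 13.55 and 14.67 and fell by 1.68 (SE 0.37, adjusted p = 0.027). PPA1, the cytosolic pyrophosphatase, fell by 1.69 (SE 0.33, adjusted p = 0.0146). TCN1, a vitamin B12 binding protein of secretions, read 6.84, 7.72, 7.83 and 6.79 against 9.25, 8.86, 9.21 and 9.55 and fell by 1.92 (SE 0.44, adjusted p = 0.0333). MGP, an inhibitor of calcification in matrix, fell by 1.65 (SE 0.38, adjusted p = 0.033). TIMP1, an inhibitor of metalloproteinases, read 6.15, 6.07, 4.9 and 5.0 against 7.57, 7.18, 10.02 and 9.88, lower in controls 83 and 88 than in controls 89 and 92. MMP1, the interstitial collagenase, read 10.26, 10.70, 10.60 and 10.81 against 12.31, 12.26, 12.45 and 12.70. EFNB2, an ephrin ligand, and DDAH1, which degrades inhibitors of nitric oxide synthase, fell by 2.03 and 1.55 (adjusted p = 0.0193 and 0.0238). FBXL5, the iron-sensing subunit of a ubiquitin ligase, had the smallest called fall, 0.78 (adjusted p = 0.0247), with narrow groups: 11.39, 11.56, 11.69 and 11.54 against 12.58, 12.08, 12.28 and 12.36.

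In these metabolic and structural genes RDH11 and FMO1 passed in all 8 fits without 1 array, whereas MMP1 and CPT1A passed in 0 (adjusted p up to 0.144 without control 92 and 0.101 without antibiotics 95). ARG2, ANGPTL4, MGST1, MGP and TIMP1 passed in 1, HIGD1A and TCN1 in 2, EFNB2, DDAH1 and FBXL5 in 3, HSD11B1 in 4 and PPA1 in 5; the highest adjusted p for HIGD1A was 0.101 without control 92. With position as a covariate HSD11B1, RDH11 and FMO1 passed.

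On the higher side 1 gene stood apart. TDH, threonine dehydrogenase, which opens the breakdown of threonine to glycine and acetyl-CoA, read 10.40, 9.73, 10.62 and 9.92 with antibiotics and 2.14, 2.14, 2.86 and 2.14 in controls, where 3 arrays were at the lowest deposited value. Its rise was at least 35.9-fold (adjusted p = 2.81e-12). It was also at 2.14 on all 8 proximal arrays, antibiotics or control. GCAT, the next enzyme of the same route, read 8.3, 7.53, 8.31 and 6.93 against 6.58, 6.99, 5.79 and 5.49, with overlap (1.55, SE 0.52, adjusted p = 0.146). The list of amino acid and one-carbon enzymes, which holds both genes, was split, 16 of 31 tested higher and 15 lower with a median of 0.07. AHCY, which clears S-adenosylhomocysteine, was higher without overlap and did not pass (1.02, SE 0.31, adjusted p = 0.103). KYAT1, a transaminase of the kynurenine route, read 7.34, 6.36, 7.07 and 7.62 against 5.33, 5.98, 5.55 and 4.85 and rose by 1.67 (SE 0.31, adjusted p = 0.0101).

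Membrane and signalling proteins followed in size. SLC2A8, an intracellular hexose transporter, read 8.91, 8.55, 8.03 and 6.78 against 5.3, 4.62, 4.68 and 4.23. XIRP2, an actin-binding muscle protein, read 6.33, 8.28, 8.09 and 8.18 against 4.64, 4.67, 2.84 and 3.31, lowest among antibiotics arrays on 85 and at 5 or under in every control, a rise of at least 6.59-fold (adjusted p = 0.000187). The other 4 tested striated muscle genes did not pass, and 14 of 19 on the array were dim on all 8 arrays. UPK3A, a urothelial membrane protein, read 7.48, 6.86, 7.09 and 7.12 against 3.72, 4.32, 3.73 and 4.3, and the other mesothelial or urothelial genes were not tested. GNB5, a G protein beta subunit, read 7.09, 7.0, 6.63 and 7.21 against 4.05, 5.56, 4.05 and 4.02, 3 of the controls being near 4. GNAZ, a G protein alpha subunit, read 8.69, 7.54, 7.94 and 8.01 against 6.28, 6.51, 6.51 and 5.84 and rose by 1.76 (SE 0.31, adjusted p = 0.00664). P2RX4, an ATP-gated channel, read 9.38, 9.02, 8.82 and 8.68 against 7.67, 7.71, 7.23 and 7.67 and rose by 1.4 (SE 0.24, adjusted p = 0.00518), with its second probe set higher by 1.45 (adjusted p = 0.00155). CDK5, a kinase best known from neurons, read 7.47, 6.94, 5.73 and 7.35 against 4.89, 5.54, 3.77 and 3.78. BEX3, a small adaptor, was tight with antibiotics (12.08, 11.94, 11.89 and 11.90) and spread in controls (9.51, 9.97, 10.53 and 9.1). The other 6 tested genes of the enteric neuron list, to which BEX3 belongs, did not pass. SERPINI1, the neuronal serpin, read 13.24, 13.29, 12.66 and 13.67 against 11.41, 11.88, 10.95 and 11.36 and rose by 1.82 (SE 0.37, adjusted p = 0.0177). Of these genes CDK5 passed in 3 and SERPINI1 in 2 of the 8 fits without 1 array (adjusted p up to 0.0939 without control 92 and 0.0661 without antibiotics 95), and the other 7 passed in all 8. With position SLC2A8, XIRP2, UPK3A, GNB5, P2RX4 and CDK5 passed, as did TDH.

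Genes of the lysosome were mostly higher. In the lysosomal list 26 of 32 tested members had a higher mean, and 10 were higher without overlap (7.88 percent of all tested genes were). Only NEU1 was called, and the list median was 0.72. NEU1, the lysosomal sialidase, read 10.92, 10.75, 10.80 and 10.66 against 7.63, 7.31, 10.07 and 8.87, where controls 83 and 88 lay lowest. FUCA1 and GUSB, lysosomal glycosidases, were higher without overlap and did not pass (1.89, SE 0.57, adjusted p = 0.107 and 1.73, SE 0.54, adjusted p = 0.12). GM2A and CTSS of the list were lower without overlap and did not pass (-0.97, SE 0.32, adjusted p = 0.144 and -0.7, SE 0.26, adjusted p = 0.201). The genes that follow lie outside that list unless stated, and were taken for being called or near the threshold. ATP6V1C1, a subunit of the proton pump that acidifies lysosomes, read 12.25, 12, 12.51 and 12.41 against 11.04, 11.15, 11.49 and 11.27 and rose by 1.05 (SE 0.23, adjusted p = 0.0263). Pump subunits within the list were mixed and not called. ATP6V1H, ATP6V0D1 and ATP6V1B2 gave 0.67, 0.89 and 0.54 (adjusted p = 0.158, 0.253 and 0.694), and ATP6V1E1 gave -0.3 (adjusted p = 0.611). DMXL2, which regulates that pump, rose by 1.44 (SE 0.25, adjusted p = 0.00518). VPS41, a tethering subunit for fusion with lysosomes, read 10.09, 9.61, 10.05 and 10.26 against 8.48, 8.8, 9.24 and 9.0 and rose by 1.12 (SE 0.27, adjusted p = 0.0407). VPS11, from the same tethering complex, gave 1.08, SE 0.28, adjusted p = 0.0596. GNPTG, a subunit of the enzyme that tags lysosomal enzymes with mannose 6-phosphate, read 7.86, 7.54, 7.45 and 8.32 against 5.47, 6.29, 6.51 and 6.32 and rose by 1.65 (SE 0.31, adjusted p = 0.0113). TRAPPC2L, a trafficking complex subunit, rose by 1.18 (SE 0.22, adjusted p = 0.00908). The position of the arrays moved with this set, and its part was not tested: the lysosomal median was 0.18 without controls 83 and 88 and -0.38 with position as a covariate, NEU1 then differed by 0.08 (adjusted p = 0.961), and only TRAPPC2L of the called genes named here passed with it. DMXL2, GNPTG and TRAPPC2L passed in all 8 fits without 1 array, ATP6V1C1 in 3 and VPS41 and NEU1 in 1 (for NEU1 adjusted p up to 0.141 without control 83).

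Several mitochondrial enzymes rose by small steps. ACADS, the short-chain acyl-CoA dehydrogenase, read 8.21, 8.26, 8.09 and 8.59 against 7.14, 7.37, 6.94 and 7.04 and rose by 1.17 (SE 0.24, adjusted p = 0.0177). IVD, the dehydrogenase of leucine breakdown, read 6.78, 7.23, 5.98 and 7.67 against 5.64, 5.65, 5.32 and 5.64 and rose by 1.35 (SE 0.33, adjusted p = 0.0428), and MCCC2, a subunit of the next enzyme of that route, read 7.1, 6.96, 8.35 and 8.55 against 5.54, 5.18, 6.82 and 6.14 without passing (1.82, SE 0.47, adjusted p = 0.0588). ACAD9 and ECSIT, which assemble respiratory complex I, rose by 1.45 (SE 0.34, adjusted p = 0.0364) and 1.07 (SE 0.18, adjusted p = 0.00491). MECR, an enzyme of mitochondrial fatty acid synthesis, rose by 1.1 (SE 0.27, adjusted p = 0.0432), and ENDOG, a mitochondrial nuclease, by 1.26 (SE 0.31, adjusted p = 0.0434). Fatty acid oxidation genes as a list were split, 11 of 20 tested higher and 9 lower, with ACADS called higher and CPT1A called lower. Of 47 tested respiratory chain genes 37 had a higher mean with a median of 0.21, 2 at an unadjusted p under 0.05 and 0 calls (NDUFA10 had the smallest adjusted p, 0.147). ECSIT passed in all 8 fits without 1 array; ACADS passed in 4, ACAD9 in 2 and IVD, MECR and ENDOG in 1. ENDOG passed with position (1.99, adjusted p = 0.0424) and the other 5 did not.

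Carbohydrate and energy regulators included GYG1, the primer of glycogen synthesis, which read 11.16, 10.92, 10.75 and 11.57 against 9.69, 8.88, 10.01 and 9.61 and rose by 1.55 (SE 0.3, adjusted p = 0.0118). PYGL, the glycogen phosphorylase of liver type, read 10.63, 10.17, 10.46 and 10.40 against 9.04, 9.32, 9.68 and 9.13 without overlap and did not pass (1.12, SE 0.28, adjusted p = 0.0542). BPGM, which makes 2,3-bisphosphoglycerate, rose by 1.51 (SE 0.31, adjusted p = 0.0181). PRKAA2, a catalytic subunit of the energy sensor AMPK, read 8.52, 8.63, 9.21 and 8.81 against 7.16, 7.26, 8.15 and 7.13 and rose by 1.37 (SE 0.32, adjusted p = 0.0393). CEBPA, a transcription factor of differentiated epithelium, read 6.28, 5.83, 5.83 and 5.76 against 4.43, 5.52, 4.35 and 4.95 and rose by 1.11 (SE 0.28, adjusted p = 0.0484), while its relative CEBPD read 9.32, 9.57, 9.49 and 9.94 against 12.17, 10.29, 13.82 and 13.52 and did not pass (-2.87, SE 0.74, adjusted p = 0.0596). ALAD, an enzyme of haem synthesis, rose by 1.3 (SE 0.32, adjusted p = 0.0466), and PTGR1, which inactivates leukotriene B4 and prostaglandins, read 10.84, 10.62, 10.67 and 11.03 against 9.1, 9.92, 8.3 and 8.85 and rose by 1.75 (SE 0.38, adjusted p = 0.0247). COPS3, a COP9 signalosome subunit, had the smallest called rise, 0.79 (adjusted p = 0.0464). EIF4E2, a cap-binding protein, rose on 1 of its 3 probe sets by 1.54 (SE 0.29, adjusted p = 0.0112), and the others gave 0.40 and -0.04. GYG1 passed in all 8 fits without 1 array, EIF4E2 in 7, BPGM in 5, and PRKAA2, CEBPA, ALAD, PTGR1 and COPS3 in 1. PTGR1 passed with position (2.75, adjusted p = 0.0261) and the others did not.

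Of the remaining higher genes, ACBD6 rose by 0.89 and KIAA0930 by 2.35. Between these lay TPGS2, CHID1, SLC35B2, ZNF32, IFT22, LACTB2, NVL, AATF, PRMT7, CUTA, LMBRD2, PNMA1, TMEM42, TMEM186, FAM149A, NUDT14, LOC100526209 and LOC100156657. ETNK2, under log2 5 in every control, rose at least 1.68-fold. SLC35B2, which supplies the Golgi with activated sulfate, rose by 1.37 (SE 0.23, adjusted p = 0.00504), and CHID1, a chitinase-domain protein, by 1.32 (SE 0.21, adjusted p = 0.00339). Of the remaining lower genes, MFSD2A, RGS4, LPAR6 and ZC4H2 fell by 0.80 (ZC4H2) to 2.16 (MFSD2A), and BACE2 and B4GALT4 by at least 1.11-fold and 1.46-fold. MFSD2A, a transporter of lysophospholipids, read 6.36, 6.21, 4.52 and 5.61 against 8.69, 7.5, 6.78 and 8.37. Of these 27 genes CHID1, SLC35B2, NVL, ETNK2 and LOC100156657 passed in all 8 fits without 1 array, the other 20 in 1 to 5, and BACE2 and ZC4H2 in 0 (adjusted p up to 0.111 without antibiotics 86 and 0.167 without control 92). None of the 27 passed with position as a covariate, where LMBRD2 had the lowest adjusted p (0.0537). CHID1, SLC35B2, NVL, ETNK2 and LOC100156657 then had adjusted p of 0.0699, 0.0885, 0.209, 0.0845 and 0.104. TDRP, also called higher, rose at least 2.93-fold (limma adjusted p = 0.000166). It passed in all 8 fits without 1 array and with position (adjusted p = 0.0399).

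Beyond the calls, several lists had means mostly in 1 direction with 1 limma call or 0. All 28 tested cell cycle and DNA replication genes had a lower mean, with a median of -0.38 and 0 calls in limma. Of these, 7 were lower without overlap (6.7 percent of all tested genes were) and 8 had an unadjusted p under 0.05. AURKA, a mitotic kinase, read 4.66, 5.11, 4.44 and 5.49 against 6.16, 5.87, 6.16 and 6.8 (-1.32, SE 0.42, adjusted p = 0.121), and UBE2C, a ubiquitin carrier of mitotic exit, gave -1.51, SE 0.52, adjusted p = 0.158. Ribosomal protein genes went the other way, with 54 of 56 higher, 2 at an unadjusted p under 0.05 and 0 calls. Their median was 0.17, against 0.13 for the 200 brightest genes. It was 0.09 with quantile normalization repeated and 0.39 with position as a covariate. RPL12 gave 0.44, SE 0.16, adjusted p = 0.194. Of 17 tested genes of the unfolded protein and amino acid stress response, 15 were lower (median -0.84, 5 at an unadjusted p under 0.05, 0 calls). XBP1, its central transcription factor, was narrow in both groups, 11.18, 11.04, 11.01 and 11.11 against 12.21, 11.63, 12.33 and 12.02, and did not pass (-0.96, SE 0.25, adjusted p = 0.0611). The list's average ran from 9.20 to 10.76 over the controls and from 9.34 to 9.99 with antibiotics. Apoptosis genes were lower in 15 of 19 (median -0.48, -0.24 at the floor), with the TNF receptor gene TNFRSF1B the single call. Cholesterol synthesis genes were lower in 10 of 12 (median -0.66) and fatty acid synthesis genes in 8 of 11 (median -0.36), both with 0 calls and with 3 and 2 members at an unadjusted p under 0.05. ELOVL6, a fatty acid elongase, read 4.93, 7.68, 7.68 and 7.37 against 10, 9.92, 8.02 and 8.83 (-2.28, SE 0.58, adjusted p = 0.0539). For all 4684 tested genes the median was 0.02, with 427 higher and 402 lower at an unadjusted p under 0.05 in limma.

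**Figure D4:**
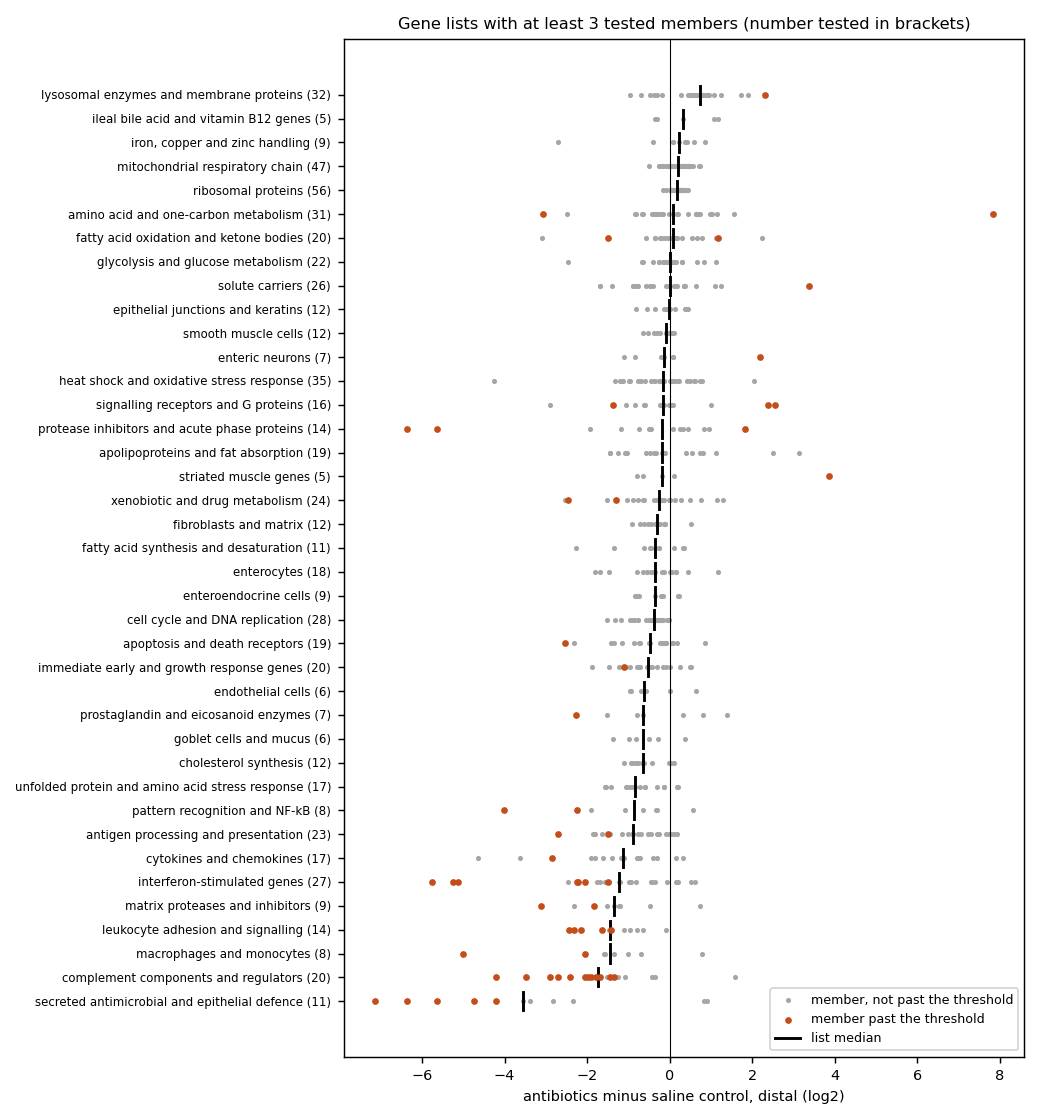
Difference between antibiotics and saline control in distal tissue (log2, x axis) for each tested member of the gene lists with at least 3 tested genes (rows, number tested in brackets), with orange points for members past the threshold and a black bar at the list median. The defence, complement, macrophage and leukocyte lists lie lowest, and the lysosomal list lies highest with 1 member past the threshold.

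Absorptive genes gave 0 calls in limma, with 4 enterocyte genes lower at an unadjusted p under 0.05. Among all 4684 tested genes 402 were lower at that level. Of 18 tested enterocyte genes 13 had a lower mean (median -0.37, -0.27 at the floor), led by ANPEP, an aminopeptidase of the brush border, which read 11.52, 10.63, 10.99 and 11.04 against 12.47, 11.89, 12.60 and 13.11 (-1.47, SE 0.52, adjusted p = 0.166). The glucose transporter SLC5A1 overlapped between groups (-1.7, SE 0.63, adjusted p = 0.19). Apolipoproteins were uneven. APOE read 10.83, 10.14, 10.36 and 10.65 against 6.37, 6.25, 10.17 and 9.15 (2.51, SE 0.69, adjusted p = 0.0755), and APOC2, the activator of lipoprotein lipase, read 15.43, 15.16, 15.20 and 15.44 against 9.97, 11.45, 14.10 and 13.17 (3.13, SE 1.07, adjusted p = 0.154). In both genes controls 83 and 88 were lowest. GPX2, a glutathione peroxidase of gut epithelium, read 6.98, 6.2, 6.82 and 6.97 against 10.72, 8.3, 12.27 and 12.71, without overlap and with controls spread over more than 4 log2 units, and did not pass (-4.26, SE 1.17, adjusted p = 0.0755). Goblet cell genes were lower in 5 of 6 (median -0.65, -0.39 at the floor, 3 at an unadjusted p under 0.05, 0 calls). FABP6 overlapped between the groups (1.06, SE 1.08, adjusted p = 0.694).

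In all, 829 genes had an unadjusted p under 0.05, 427 higher and 402 lower. Genes without overlap between the groups that were not called numbered 316 higher and 247 lower, with medians of 0.72 and -0.82. The genes nearest to the threshold on the lower side, besides TYROBP, ELOVL6, PDK4, CEBPD, RGS1 and XBP1, were EHF, an epithelial transcription factor (at least 1.07-fold lower, adjusted p = 0.0501), RYBP, a Polycomb subunit (-0.77, SE 0.2, adjusted p = 0.0539), PLAC8 (-4.37, SE 1.12, adjusted p = 0.0561) and CD300C, a myeloid receptor (at least 1.18-fold lower, adjusted p = 0.0611). PLAC8 read 5.39, 4.19, 3.48 and 5.07 against 8.72, 6.74, 8.08 and 12.07, with control 92 more than 3 log2 units above the next. Nearest on the higher side, besides PYGL, MCCC2 and VPS11, were MFSD7, FGD4, LOC100512977, NTMT1, RBP5, VEGFB and DPCD, with differences from 0.96 (DPCD) to 2.19 (RBP5) and adjusted p from 0.0514 to 0.0588. RBP5, a cellular retinol-binding protein, read 7.74, 7.9, 7.16 and 7.59 against 4.91, 4.87, 6.17 and 5.68, and VEGFB, a vascular growth factor, read 9.82, 9.44, 9.14 and 9.97 against 7.31, 8.02, 9.11 and 7.5.

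Among the 200 brightest genes of the distal arrays (mean above 13.38), HIGD1A and OLFM4 were called lower, 0 were called higher, 19 had an unadjusted p under 0.05 and the median difference was 0.13. HSPA8, the constitutive heat shock chaperone, read 13.80, 13.93, 14.13 and 13.90 against 15.19, 14.55, 14.62 and 15.25 (-0.96, SE 0.3, adjusted p = 0.12). Thioredoxin, TXN, gave -0.69, SE 0.25, adjusted p = 0.19, while its relative TXNDC17 gave 0.83, SE 0.23, adjusted p = 0.0772. CTSS, a cathepsin of antigen-presenting cells, gave -0.7, SE 0.26, adjusted p = 0.201, the lectin LGALS2 gave 0.83, SE 0.24, adjusted p = 0.0865 and the tetraspanin CD63 of late endosomes gave 0.48, SE 0.17, adjusted p = 0.182.

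Many of the called probe sets have no gene name here: 107 of the 245 called probe sets were annotated with no gene or several. Of the unnamed probe sets with the smallest p, Ssc.17889.1.A1_at read 4.09, 2.38, 4.01 and 2.95 with antibiotics and 12.99, 8.0, 9.15 and 11.59 in controls, and was at least 43.2-fold lower. In proximal tissue it averaged 11.74 with antibiotics and 9.87 in controls. Ssc.26009.1.S1_at read 5.16, 4.42, 6.67 and 4.29 against 10.12, 9.0, 10.88 and 9.45, and averaged 9.89 and 8.63 in proximal tissue. On the higher side Ssc.22934.1.S1_at read 8.70, 8.13, 7.66 and 6.41 against 3.32, 3.69, 3.21 and 3.44, at least 6.61-fold higher. Ssc.8871.2.A1_at read 10.57, 10.06, 10.55 and 10.23 against 7.23, 7.38, 7.56 and 7.20, and Ssc.18979.1.A1_at read 6.29, 5.68, 6.74 and 6.95 against 2.54, 3.44, 3.11 and 2.62. The 5 given here had groups more than 2 log2 units apart at their nearest arrays. They passed the test of a difference between segments (adjusted p = 0.00392, 0.00791, 0.0244, 0.0363 and 0.00392). Not all unnamed probe sets with the smallest p did so. On the lower side Ssc.12316.1.S1_at, Ssc.22621.1.S1_at and Ssc.9683.1.A1_at did not pass that test (adjusted p = 0.0666, 0.89 and 0.592). On the higher side Ssc.8871.1.S1_at and Ssc.30258.1.A1_at passed it (adjusted p = 0.0107 and 0.00774). The nearest arrays of all of these except Ssc.8871.1.S1_at lay less than 2 log2 units apart.

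Whether an effect was particular to the distal segment was tested as the difference between the distal and proximal effects, with the proximal arrays coming mostly from the same animals (7 of 9 gave both segments). This test called 22 probe sets (0.191 percent) and 10 genes, 7 of which were among the 121. With the animal as a block it called 39 probe sets, with position as a covariate 1, without antibiotics array 86 or 95 10 and 11, and without control 92 or 83 11 each. By the deposited values, those under log2 5 included, the effect in distal minus that in proximal was 7.84 for TDH (SE 0.31, adjusted p = 5.8e-10), 3.46 for UPK3A (adjusted p = 0.00202), 3.84 for XIRP2 (adjusted p = 0.0179) and 2.22 for TDRP (adjusted p = 0.0456). It was -6.46 for PI3 (adjusted p = 0.0277) and -5.09 for GBP1 (adjusted p = 0.00486). GBP1 averaged 11.24 and 11.28 in proximal tissue with and without antibiotics, against 7.75 and 12.89 in distal tissue, whereas PI3 was near the lowest values in both proximal groups (2.56 and 2.47). MFSD2A (-3.91, adjusted p = 0.0363) had proximal means of 8.80 with antibiotics and 7.05 in controls, the opposite order to distal tissue. TMEM135, GPD1L, a glycerol phosphate dehydrogenase relative, and INSIG1, which retains sterol sensors in the endoplasmic reticulum, passed this test without being called in distal tissue (-2.18, -1.95 and -2.07, adjusted p = 0.0281, 0.0301 and 0.0363). For the other 114 called genes a difference between segments was not shown: S100A9, DMBT1, C5 and SRGN, for example, had adjusted p of 0.917, 0.477, 0.967 and 0.82 in it.

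The spread among animals was larger in controls than with antibiotics for 2976 of 4684 genes (63.5 percent), with median SDs of 0.37 and 0.29. Among the called genes this held for 46 of 68 lower genes (median SD 0.57 against 0.45) and for 28 of 53 higher genes (0.38 against 0.31). Cases with a wide control group and a narrow antibiotics group included UBD, GPX2 and CEBPD, and those with the reverse included OLFM4, PI3 and SLC2A8. With position as a covariate 45 of the 68 lower and 25 of the 53 higher genes had a larger difference than without it, although 89 of the 121 then missed the threshold.

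**Figure D5:**
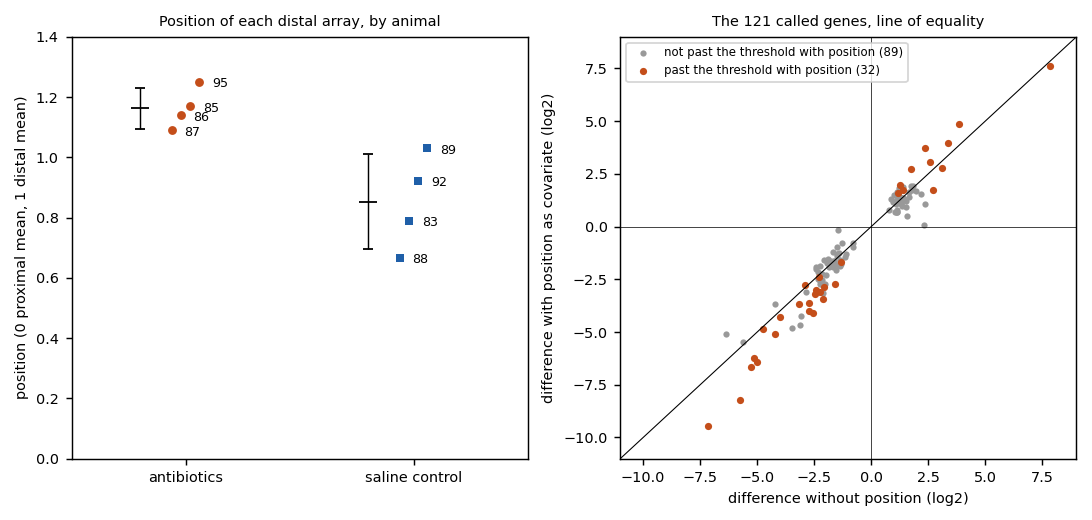
Left, position of each distal array between the proximal mean (0) and the distal mean (1), by animal, with bars for the mean and SD of 4 arrays. Right, difference of each of the 121 called genes with position as a covariate (y axis, log2) against the difference without it (x axis, log2), with orange for the 32 genes past the threshold in both; all points keep their sign, and NEU1 and CAPG lie nearest to 0.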

How the data were processed

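Affymetrix porcine arrays, 1 per animal and segment, were hybridised with labelled RNA of small intestinal tissue. Per the submitters' processing notes the tools were GCOS 1.2, GCRMA and limma; the deposited values are log2 expression values, with a floor of 2.14, and 39.7 percent of them lie under 2.5. The authors' order of steps is not given in the sources used here. GEO's platform annotation named 1 gene for 10069 of 23999 probe sets, several for 198 and none for 13732; 124 control probe sets were left out. Depth has no meaning for arrays: 4 animals per group limit the precision.

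From these values limma 3.58.1 (R 4.3.3) was fitted to all 16 arrays in 4 groups, on 11538 probe sets above log2 5 on at least 4 arrays, with Benjamini-Hochberg adjustment over all of them and a threshold of 0.05. The procedure was tested on simulated data. A gene was read from its brightest tested probe set. Described are all called genes, the 10 nearest to the threshold in each direction without overlap and genes past the segment test. Also described are the 5 per direction with the smallest p among the 200 brightest, and unnamed probe sets by p. From chosen lists, uncalled members among those with the smallest p are given, but not always the 2 smallest or only 2. Which of all these are given in full, and GPX2, was chosen after their values were seen. The comparison, the 47 gene lists and these rules were chosen with earlier results of these data known. Further uncalled interferon genes, such as OAS1 and MX1, were also named after their values were seen. Distal groups share no animal. The number in each label was read as the animal, which the labels do not state. Of 9 such numbers 7 occurred in both segments, and same-numbered residuals correlated at 0.0293 to 0.526, with 2 of the 7 under 0.1. Alternatives covered the filter, scaling, moderation, weights, threshold, probe set choice, animal block, single arrays, RNA integrity and position.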

Additional observations from a re-analysis of the deposited data

Results flagged for a closer look

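Of the 176 groups of 4 arrays given in full (88 genes, 2 groups each), 14 held an array far from its other 3 by Dixon's test. The test's rate of about 1 in 20 by chance is for independent groups. It cannot be set against these, which share the same 8 arrays and were chosen after their values were seen. With antibiotics these were array 87 for PI3 (8.13) and C1QC (5.48), array 86 for FMO1 (3.95), and array 85 for C4BPB (6.05), CEBPA (6.28), ELOVL6 (4.93), PIGR (2.16) and XIRP2 (6.33). Among controls they were array 88 for C1QC (9.96) and GNB5 (5.56), and array 89 for IVD (5.32), P2RX4 (7.23), PRKAA2 (8.15) and TDH (2.86). For TDH the other 3 controls sat at the lowest deposited value, so a value only slightly above it stands apart. The antibiotics arrays of PIGR and FMO1 were also all under log2 5.

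The effect in distal tissue differed from that in proximal tissue for 10 genes by limma's interaction test. Values under log2 5 enter these differences as deposited. The distal effect was higher than the proximal one by 7.84 for TDH, 3.84 for XIRP2, 3.46 for UPK3A and 2.22 for TDRP. The difference was -6.46 for PI3, -5.09 for GBP1, -3.91 for MFSD2A, -2.18 for TMEM135, -2.07 for INSIG1 and -1.95 for GPD1L.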

How the results depend on the processing

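All 121 called genes kept their direction under every alternative in which they were tested, while counts of calls moved widely. Against 245 called probe sets (118 higher, 127 lower), no filter gave 138 (54 lower), array quality weights 1665 (812 and 853), the 8 distal arrays alone 430 (204 and 226), animals with both segments 159 (73 higher), an adjusted p of 0.10 478 (237 and 241) and position as a covariate 132 (47 higher). Leaving out 1 array gave 106 to 353 calls, 57 to 153 higher and 48 to 200 lower. The other alternatives, 189 to 318 calls, stayed within 1.5 times. No paired analysis was possible for the distal groups because they share no animal; with the animal as a random replicate block over both segments (correlation 0.172) 257 were called. The difference between segments, 22 calls, gave 39 with that block, 11 with no filter, 210 with weights, 14 with animals of both segments, 38 at 0.10, 10 without controls 88 and 83, 1 with position and 10 to 33 leaving out 1 array. Of uncalled genes, TIMP2 turned to -0.08 with the mean of its probe sets, GUSB to -0.16 and AMN to -1.88 with position, and TNNI2 to 0.63 without control 88 (-1.32 to 0.63 leaving out 1 array), 0.67 without controls 88 and 83 and 2.72 with position. The cause of these moves was not tested. The number of animals, and not depth, limits what these arrays can show, and genes under log2 5 have only a bound.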

Other observations

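Further lists gave few calls. Of 24 tested genes of xenobiotic metabolism 16 had a lower mean (median -0.26), and FMO1 and MGST1 were called lower. EPHX2, an epoxide hydrolase of lipid mediators, was higher without overlap and did not pass (a difference of 1.28, limma adjusted p = 0.262). Solute carriers were even, 13 of 26 higher, with SLC2A8 the single call. SLC37A4, the glucose 6-phosphate transporter of the endoplasmic reticulum, and SLC46A1, the proton-coupled folate transporter, were higher without overlap and did not pass (1.25 and 1.09, adjusted p = 0.11 and 0.216). Among 9 tested genes of iron, copper and zinc handling 7 had a higher mean, and STEAP4, a metalloreductase, was at least 1.05-fold lower (limma adjusted p = 0.121). Enteroendocrine genes were lower in 7 of 9 tested (median -0.37), with 1 at an unadjusted p under 0.05 and 0 limma calls. Prostaglandin and eicosanoid genes were lower in 4 of 7, and PTGS2, the inducible cyclooxygenase, gave 1.39 with overlap (adjusted p = 0.401). Smooth muscle genes were lower in 10 of 12 with a median of -0.09, 0 at an unadjusted p under 0.05 and 0 limma calls.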
